A study of Mus musculus with 2 samples.

Results

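Alveolar epithelial type II (AE2) cells of old and young mice that had received only saline were compared, so that the difference in age was read without lung injury. Cells were taken from C57BL/6JRj mice of 18 months (old control) and 3 months (young control), 24 h after saline. The lungs had been lavaged, filled with dispase and agarose and minced, and living cells that carried EpCAM, a surface protein of epithelium, were sorted, with 1 hashtag antibody per group. Old and young control cells shared a droplet lane with cells of old and young mice given lipopolysaccharide (LPS, 2.5 mg/kg, 24 h), a bacterial cell wall component that injures the lung. The whole experiment was done on 2 lanes, which the labels call independent biological replicates, so each group had 2 libraries. The labels used here do not give the number or the sex of the mice behind a library.

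AE2 cells were chosen by a rule on their own transcripts. A cell had at least 500 detected genes, at most 20% mitochondrial counts of unique molecular identifiers (UMIs) and at least 1% of its UMIs from Sftpc, the gene of surfactant protein C. It also had a UMI in at least 3 of 6 further AE2 genes (Lamp3, Abca3, Slc34a2, Napsa, Lpcat1, Etv5), no UMI of the leukocyte gene Ptprc, under 3 UMIs of the ciliated cell genes Ccdc153 and Tmem212, and under 10% Scgb1a1, the gene of the main club cell protein. The rule took 4026 of the 7038 barcodes in the control tables, and the 8 tables of the series hold 14048 barcodes. There were 736 and 1142 cells in young control 1 and 2, and 1057 and 1091 in old control 1 and 2. These were 72.6% and 82.6% of the cells past the quality limits in the young libraries and 71.5% and 71.2% in the old. Those limits had removed 34.7% and 24.8% of the young barcodes and 14.6% and 20.04% of the old.

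The genes that chose the cells are given as a description only. Sftpc made up a median of 25.6% and 23.7% of a cell's UMIs in the young libraries and 21.9% and 23.2% in the old. No control cell that met the other criteria lay between 0.5% and 2% Sftpc, so the limit of 1% divided nothing among them. At the limit of 3 marker genes, 0, 1, 2 and 1 cells of young control 1 and 2 and old control 1 and 2 had exactly 3 of the 6, and 1, 0, 1 and 1 cells with enough Sftpc had 2. All 6 marker genes were detected in 576 and 991 young cells and in 855 and 947 old cells. Abca3 stood at 823 and 826 CPM (the UMIs of a gene relative to all UMIs of its library, TMM-scaled) in the young and 861 and 862 in the old libraries, and Lamp3 at 1328 and 1467 against 1302 and 1345. Sftpb, the gene of surfactant protein B, which the rule did not use, stood at 9578 and 9597 CPM in the young and 8621 and 8911 in the old libraries.

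AE2 cells line the air sacs of the lung together with the flat type I cells. They make surfactant, a film of lipid and protein that lowers surface tension, store it in lamellar bodies, and divide to replace themselves and type I cells after damage. They also sense microbes, release chemokines and show peptides on major histocompatibility complex (MHC) molecules. Class I molecules consist of a heavy chain, encoded in mouse by genes such as H2-K1, H2-D1 and the H2-Q family, and beta-2-microglobulin, and display peptides from inside the cell to CD8 T cells.

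UMIs were summed over the AE2 cells of each library, 4197306 and 7465529 in the young and 6222367 and 7808045 in the old. The median cell had 5742 and 6533.5 UMIs in the young and 5820 and 7095 in the old libraries, and between 1667.5 and 1955 detected genes. Mitochondrial UMIs made up a median of 6.88% and 7.18% in the young and 8.13% and 7.71% in the old. No barcode was shared within a lane, and 1 was shared by the young control tables of the 2 lanes. The edgeR quasi-likelihood test was run on 11347 genes with all 8 libraries in 1 fit, and a gene is said to be called, to have risen or to have fallen where its Benjamini-Hochberg adjusted p was under 0.05. Fold changes are log2 of old over young with an approximate SE and n = 2 libraries per group.

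In resting AE2 cells of old mice 20 genes were higher (0.176% of the genes tested) and 31 were lower (0.273%), 11 and 12 of them by more than 2-fold. The groups did not overlap for any of these 51 genes, and the sign was the same in both lanes. Groups of 2 often fail to overlap: this was so for 22.9% of all genes with old above young and for 22% with old below. The median log2 fold change of all genes was 0.00206. With the lane as a replicate block the counts were 21 (0.185%) and 35 (0.308%). Leaving out young control 1, young control 2, old control 1 or old control 2, where the lone library is assumed to vary like the other groups, gave 7, 4, 5 and 15 higher genes and 12, 6, 5 and 11 lower ones. Slc6a20a, H2-Q7, Macc1, B2m, Tspan8, Itga6, Pim1, Gadd45g and Gpc3 were called in all of these fits and under each of the other alternatives. Each of the other called genes lost its call under at least 1 alternative, and for several of them the highest adjusted p reached is given beside its values. Some of the fits without 1 library also called genes outside the 51. The counts were larger with the 4 control libraries alone (136 higher and 190 lower) and with no filter on low counts (94 and 112).

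**Figure D1:**
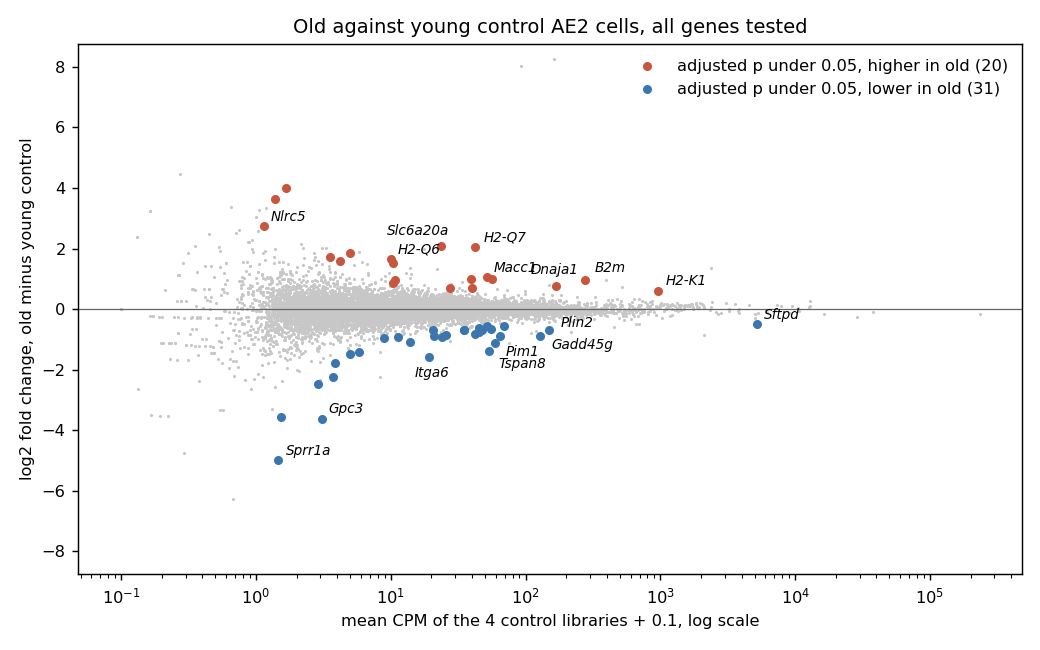
Log2 fold change of old over young control AE2 cells (vertical) against the mean CPM of the 4 control libraries on a log scale (horizontal), 1 point per gene tested. The 20 red and 31 blue points are the genes called higher and lower in old cells. The 2 grey points above 8 are the immunoglobulin genes Igkc and Ighm, whose UMIs came from 1 old library.

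Among the higher genes, those of MHC class I antigen display had more calls than any other list. Of the 26 genes listed, 24 were tested, 5 rose and none fell, with a median log2 fold change of 0.25. Over all genes tested 0.176% rose and 0.273% fell. The called members were the heavy chains H2-Q7, H2-Q6 and H2-K1, B2m, which encodes beta-2-microglobulin, and Nlrc5, the transcriptional activator of class I genes. H2-Q6 and H2-Q7 are near-identical copies, and Nlrc5 was called in 4 of the 13 alternatives, so the 5 are not 5 separate and equally firm calls. This list was known from earlier results to hold higher genes, so its count is a description.

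B2m (chr2:122147686-122153083, GRCm38) had 180 and 195 CPM in young control 1 and 2 and 377 and 359 in old control 1 and 2. Both old libraries were therefore close to each other and well above both young ones. Its log2 fold change was 0.97 ± 0.12 (SE, adjusted p = 5.10e-04). H2-Q7 (chr17:35439155-35443773) stood at 16.2 CPM in each young library and at 77.6 and 57.5 in the old, a log2 fold change of 2.06 ± 0.19 (adjusted p = 3.59e-04). H2-K1 (chr17:33996017-34000347) had 730 and 800 CPM in the young and 1126 and 1204 in the old libraries, a log2 fold change of 0.61 ± 0.10 (adjusted p = 0.0154, at most 0.243 under the alternatives). H2-Q6 had 5.30 and 4.38 CPM in the young and 16.04 and 13.7 in the old (log2 fold change 1.64 ± 0.22). In all 4 of these genes the lower old library exceeded the higher young one.

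Nlrc5 rested on few molecules, 3 UMIs over the young and 26 over the old libraries, an old over young ratio of 7.204 with an exact 95% interval of 2.21 to 37.2 that covers counting error only. Its call (adjusted p = 0.0464) was lost with the replicate block (0.0586) and in each of the 4 fits without 1 library (at most 0.623), and it held in 4 of the 13 alternatives. The other class I genes tested had no call. The heavy chain gene H2-D1 had 611 and 623 CPM against 746 and 804, with a log2 fold change of 0.33 and an adjusted p of 0.204. H2-Q10 was at 0.48 and 0.53 CPM in the young and 2.02 and 2.13 in the old libraries (adjusted p = 0.116). The peptide transporter genes Tap1 and Tap2 had log2 fold changes of 0.15 and 0.28, and the immunoproteasome genes Psmb8 and Psmb9 of 0.28 and 0.35, none of them called. The H2-Q genes are near-identical copies, and how the deposited counts split reads between them is not given in the sources used here, so the single values of H2-Q6, H2-Q7 and H2-Q10 are uncertain.

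**Figure D2:**
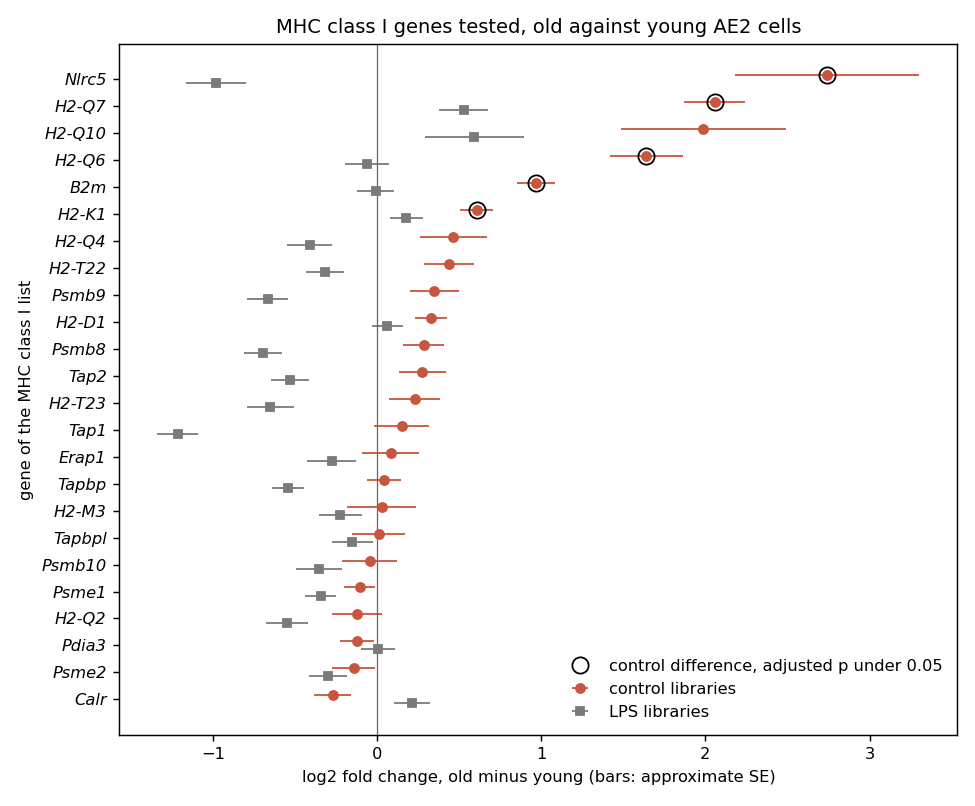
Log2 fold change of old over young AE2 cells (horizontal, bars are the approximate SE) for the 24 MHC class I genes tested, in control libraries (red circles) and LPS libraries (grey squares). Ringed circles are the 5 genes called in controls, all to the right of 0, and their grey squares lie nearer to 0 or on the other side.

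The promoters of 3 of the risen genes are shown because class I promoters carry a well-known interferon-response element, to which interferon regulatory factors (IRF) bind. Each line gives the 160 bases before the transcription start from RefSeq (GRCm38.p6), 5′ to 3′ on the gene's strand, with letters that match AANNGAAA on either strand in capitals.
B2m, chr2:122147527-122147686, plus strand: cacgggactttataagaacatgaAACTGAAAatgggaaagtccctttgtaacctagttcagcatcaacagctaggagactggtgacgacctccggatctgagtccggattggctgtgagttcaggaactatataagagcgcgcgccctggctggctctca
H2-K1, chr17:34000348-34000507, minus strand: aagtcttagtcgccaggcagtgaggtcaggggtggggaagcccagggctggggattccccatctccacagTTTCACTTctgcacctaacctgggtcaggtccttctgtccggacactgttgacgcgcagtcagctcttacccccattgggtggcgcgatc
H2-Q7, chr17:35438995-35439154, plus strand: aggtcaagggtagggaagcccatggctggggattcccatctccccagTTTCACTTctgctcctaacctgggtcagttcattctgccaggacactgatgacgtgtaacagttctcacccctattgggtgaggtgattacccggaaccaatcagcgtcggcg

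The match begins 137 bases before the start in B2m, 90 in H2-K1 and 113 in H2-Q7. Of the 26 class I genes 21 had an entry in the promoter table, and 14 of these held the motif in the window from 250 bases before to 50 after the start, against 23.9% of all 32851 entries. The kappaB letters of the class I enhancer, GGGATTCCC, were in 4 of the 21, H2-K1, H2-D1, H2-Q6 and H2-Q7, against 0.353% of all entries. The H2 promoters are copies of one another, and a match describes letters only: of the genes that hold both motifs, H2-D1 was not called. Most class I genes with a match to AANNGAAA were not called either, among them H2-Q2, H2-Q4, H2-Q10, H2-T22 and H2-T23.

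Other lists of immune genes had no call or few. None of the 47 interferon response genes tested was called (median log2 fold change -0.11), nor any of the 11 MHC class II genes (0.14). Examples are Ifi27l2a, an interferon-induced gene, with 5.79 and 11.4 CPM in the young and 22.7 and 15.3 in the old libraries, and the class II chain H2-Aa with 846 and 733 against 870 and 1008. Of 10 complement and 23 acute phase genes tested none was called. The filter on low counts used all 8 libraries, so some members counted as tested were near 0 in controls. Of the interferon response genes, Mx1 had 0 UMIs in each control library. Ifit2 had 3 and 1 UMIs in the young and 0 and 2 in the old libraries. Such members could hardly be called, so the absence of calls does not cover them, and the median includes them.

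Single genes outside the class I list rose as well. Slc6a20a (chr9:123634770-123678885), a sodium-dependent transporter of proline and other imino acids, had 10.1 and 8.23 CPM in the young libraries and 37.2 and 38.9 in the old. Its log2 fold change of 2.08 ± 0.17 had the smallest adjusted p of all genes (2.31e-05). Macc1 (chr12:119314270-119469987), first described as a regulator of the growth factor receptor Met in colon cancer, had 35.4 and 31.3 CPM in the young and 72.4 and 65.5 in the old (1.05 ± 0.12, adjusted p = 2.79e-04). Rbp4, which encodes the plasma carrier of retinol, had 29.4 and 23.5 against 54.5 and 49.4 CPM (0.99 ± 0.14, adjusted p at most 0.2375 under the alternatives). The 2 groups were separate for each of these genes.

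Cyp2b10, a cytochrome P450 that oxidises foreign compounds, had 39.3 and 36.0 CPM in the young and 78.6 and 69.8 in the old libraries. Its adjusted p was 0.0497, and 0.0652 with the replicate block. The call was lost in each of the 4 fits without 1 library, with an adjusted p of at most 0.580. It was the only one of 20 xenobiotic metabolism genes tested to be called, and 16 of the 20 had a positive difference. Fmo2, a flavin monooxygenase, had 6.99 and 6.90 CPM in the young and 33.0 and 22.8 in the old without a call (adjusted p = 0.481).

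Of 33 immediate-early and heat shock genes tested, 2 rose and none fell. Dnaja1, a co-chaperone of Hsp70, had 130 and 119 CPM in the young and 211 and 208 in the old libraries (log2 fold change 0.75 ± 0.10, adjusted p = 0.00134, at most 0.1915 under the alternatives). Hspa1a, an inducible Hsp70 gene, had 1.21 and 1.86 against 4.83 and 5.77 CPM, and it has a near-identical copy, Hspa1b, with 1.21 and 2.12 against 3.43 and 4.64 CPM and no call. The values of other chaperones went both ways. Hspa8 had 606 and 508 CPM in the young and 725 and 690 in the old without a call (adjusted p = 0.191). Hspb1 had 109 and 95.3 against 48.1 and 45.8 CPM, and Hsp90ab1 871 and 748 against 571 and 576. Hspb1 and Hsp90ab1 were not called (adjusted p = 0.463 and 0.0694), but with the replicate block both were (0.0366 and 0.0350). Of the 33 genes, 8 had both old libraries above both young ones and 10 both below. Over all genes tested these shares were 22.9% and 22%, so the counts are not particular to this list. The immediate-early gene Fos overlapped between the groups, at 34.2 and 52.3 CPM in the young and 68.1 and 32.9 in the old. The quality limits had removed more barcodes in the young libraries and mitochondrial UMIs were higher in the old. Their part in these values was not tested beyond a stricter limit of 10% mitochondrial UMIs. With that limit 23 genes were higher and 32 lower, and 17 of the 20 higher and 26 of the 31 lower calls were kept.

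The remaining higher genes at 20 CPM or more were Gramd2, a protein of contacts between the endoplasmic reticulum and the plasma membrane (log2 fold change 0.71), and Spink5, a serine protease inhibitor (0.70). Another 10 were under 20 CPM: besides H2-Q6, Nlrc5 and Hspa1a these were Ptger3, Ehd3, Fez1, Tox, Ttn, Banp and Mgst2. Ptger3, a receptor for prostaglandin E2, had 2 UMIs over the young libraries and 43 over the old, a ratio of 17.9 (exact 95% interval 4.66 to 152). Ehd3, a protein of endosome recycling, had 2 and 33, a ratio of 13.7 (3.51 to 118).

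**Figure D3:**
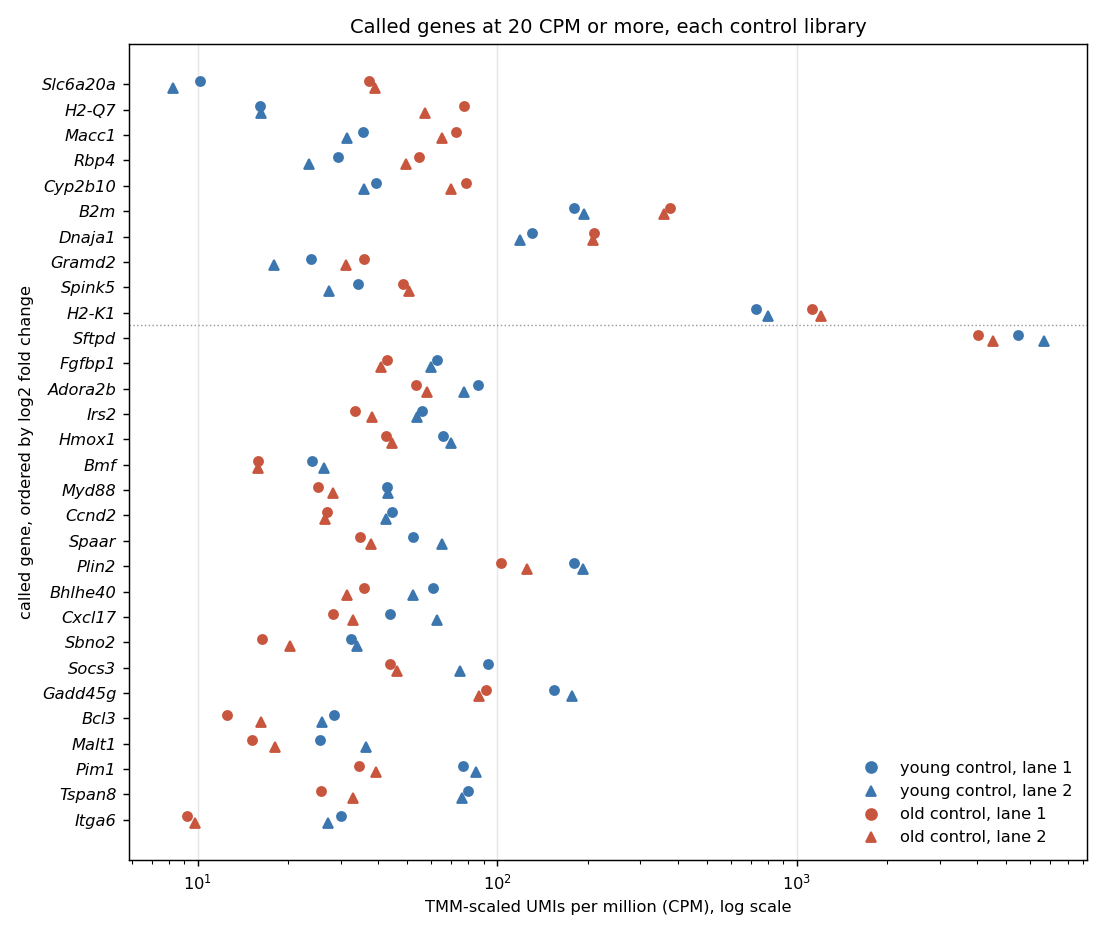
CPM on a log scale (horizontal) of the 30 called genes at 20 CPM or more, 1 symbol per control library, with circles for lane 1 and triangles for lane 2. The 10 genes above the dotted line have both red (old) symbols to the right of both blue (young) ones, and the 20 below it the reverse.

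Genes that fell in old cells included several known to be induced by cytokines or to act in cytokine and Toll-like receptor signalling. Pim1 (chr17:29490753-29496112), a kinase gene induced by cytokines through STAT factors, had 76.9 and 84.8 CPM in the young and 34.6 and 39.4 in the old libraries, a log2 fold change of -1.13 ± 0.11 (adjusted p = 8.44e-05). Socs3 (chr11:117966079-117970047), a feedback inhibitor of cytokine receptors, had 92.8 and 75.1 against 43.8 and 46.2 CPM (-0.89 ± 0.13, adjusted p = 0.00272, at most 0.154 under the alternatives). Both old libraries lay below both young ones for each gene. Bcl3, an atypical inhibitor of NF-kappaB, had 28.4 and 25.9 against 12.5 and 16.2 CPM (-0.90, adjusted p = 0.0163, called in 10 of the 13 alternatives). Myd88, the adaptor of Toll-like receptors, had 42.9 and 43.0 against 25.1 and 28.2 CPM (-0.69, adjusted p = 0.0450). The call of Myd88 held in 6 of the 13 alternatives and was lost, among others, with DESeq2 (adjusted p = 0.0894). Malt1, a protease that activates NF-kappaB, fell by 0.92 on the log2 scale (adjusted p = 0.0387), a call that was lost with the replicate block (0.0652).

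These genes were grouped after their values were known, and the list for the pathway as a whole had few calls. Of 33 NF-kappaB and Toll-like receptor genes tested, Bcl3 and Myd88 fell and none rose (median log2 fold change -0.12, 24 of the 33 negative). Nfkbia, the main inhibitor of NF-kappaB, had 89.2 and 81.6 CPM in the young and 52.2 and 54.6 in the old without a call (adjusted p = 0.319). Icam1, an adhesion molecule, had 249 and 240 against 159 and 179 CPM, with an adjusted p of 0.0530 and of 0.0373 with the replicate block. Of 22 chemokine and cytokine genes tested, only Cxcl17, a mucosal chemokine, was called. It had 43.6 and 62.7 CPM in the young and 28.2 and 33.0 in the old libraries (-0.81).

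Single genes of several other lists fell. Gadd45g (chr13:51846678-51848468), a stress-inducible regulator of growth arrest, had 155 and 178 CPM in the young and 91.7 and 86.8 in the old libraries (log2 fold change -0.90 ± 0.10, adjusted p = 3.25e-04). Hmox1, which breaks down heme and was the only called gene of 32 antioxidant genes tested, had 65.8 and 70.1 against 42.4 and 44.3 CPM (-0.65). Sbno2, a transcriptional co-regulator, fell by 0.85 on the log2 scale, and the clock-associated repressor Bhlhe40, the only called gene of 18 circadian genes tested, by 0.74. Of 25 senescence and p53 target genes tested none was called (median -0.01). Cdkn1a, the cell cycle inhibitor p21, had 25.8 and 36.0 CPM in the young and 27.1 and 35.1 in the old libraries, values that overlapped.

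Tspan8 (chr10:115816832-115849893), a tetraspanin of the cell surface, had 79.8 and 76.3 CPM in the young and 25.7 and 33.0 in the old libraries (log2 fold change -1.40 ± 0.13, adjusted p = 5.18e-05). Itga6 (chr2:71745616-71858416), the alpha 6 chain of laminin-binding integrins, had 30.1 and 27.1 against 9.19 and 9.79 CPM (-1.58 ± 0.16, adjusted p = 1.48e-04). Gpc3, a glypican that binds growth factors and sits on the X chromosome (chrX:52272426-52613950), had 27 and 34 UMIs in the young libraries and 3 in each old one (-3.62 ± 0.43). Ccnd2, the cell cycle gene of cyclin D2, had 44.4 and 42.3 against 26.9 and 26.5 CPM (-0.70), the only call among 24 cell cycle genes tested. Irs2, a docking protein of the insulin receptor, had 55.9 and 53.9 against 33.3 and 38.1 CPM (-0.61), the only call among 33 Wnt, Notch, Hippo and growth factor genes. Adora2b, an adenosine receptor, and Fgfbp1, which carries fibroblast growth factors, each fell by 0.55.

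Surfactant genes mostly had no call. Of 15 surfactant and lamellar body genes tested 1 fell, Sftpd (chr14:41172214-41185149), which encodes the collectin surfactant protein D. It had 5472 and 6672 CPM in the young and 4013 and 4523 in the old libraries (log2 fold change -0.51 ± 0.11, adjusted p = 0.0472, at most 0.758 under the alternatives). The other surfactant collectin gene, Sftpa1, had 29918 and 32435 against 25826 and 26669 CPM without a call (-0.25), and 12 of the 15 differences were negative. Plin2, which coats lipid droplets, had 180 and 193 against 102 and 126 CPM (-0.71 ± 0.11, adjusted p = 0.0104, at most 0.348 under the alternatives). No gene was called among 29 of fatty acid and phospholipid synthesis, 24 of cholesterol synthesis and uptake, 22 of fatty acid oxidation or 18 alveolar epithelial transcription factors.

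The other lower genes at 20 CPM or more were Spaar, which encodes a small lysosomal peptide (-0.71), and Bmf, a cell death gene (-0.68). Under 20 CPM, 11 more fell. Sprr1a, a cornified envelope gene, was the only called member of 21 genes of the transitional alveolar epithelium. It had 10 and 22 UMIs in the young libraries and 0 and 1 in the old, a young over old ratio of 38.5 (exact 95% interval 6.43 to 1567). Without thinning, only 0.272% and 0.263% of the AE2 cells of young control 1 and 2 held a UMI of Sprr1a. The interval treats UMIs as independent, so it does not cover their gathering in these few cells. Hhex, a homeobox gene, had 31 UMIs over the young and 3 over the old libraries (12.4, interval 3.88 to 63.5). The rest were Gpc3, Fbxl7, Veph1, Ccnjl, Igf2bp2, Ptp4a3, Zfp703, Batf and Acvr1b. The call of Igf2bp2 (adjusted p = 0.0464) was lost with the replicate block (0.0502).

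Of the called genes, 20 were outside the naming rule and are named because their values had been seen: Gpc3, Veph1, Fbxl7, Ttn, Hhex, Zfp703, Fez1, Ehd3, Tox, Ccnjl, Banp, Bmf, Batf, Ptp4a3, Acvr1b, Fgfbp1, Nlrc5, Igf2bp2, Mgst2 and Ptger3. No gene was called in the lists of nuclear oxidative phosphorylation (79 tested, median log2 fold change -0.02), cytosolic ribosomal proteins (77, 0.11), endoplasmic reticulum stress (24, -0.10), glycolysis and hypoxia (25, -0.01), constitutive proteasome (34, -0.01), lysosome and autophagy (38, -0.09), extracellular matrix (20, -0.19) or junctions and transport (23, 0.00). The ribosomal protein genes were positive in 72 of 77 and the 13 mitochondrial genes in 10, with a median of 0.11 in each. Neither was called in any member.

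The differences were also read as shares of cells with a UMI. When each AE2 cell was thinned to 3000 UMIs, which left out 54, 36, 37 and 28 shallower cells, Slc6a20a was detected in 2.79% and 2.62% of young and 10.1% and 9.88% of old cells. Without thinning the shares were 5.16%, 4.90%, 20.4% and 23.1%. In cells with a Ptprc UMI, which should lack this gene, the thinned share was at most 1.00% in any control library. Their median depth was 4795 and 5618 UMIs in the young and 5310 and 4933.5 in the old libraries, against 5742, 6533.5, 5820 and 7095 in AE2 cells.

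Tspan8 was detected in 20.1% and 19.8% of young and 7.84% and 8.65% of old thinned cells (unthinned 34.4%, 36.3%, 12.8% and 19.3%), against at most 2.05% of Ptprc cells. Itga6 was detected in 7.18% and 7.69% of young and 2.25% and 3.20% of old thinned cells (unthinned 14.5%, 14.7%, 4.82% and 6.51%). In Ptprc cells its share was 1.79% and 0.685% in the young and 1.08% and 3.99% in the old libraries. The AE2 share in old control 2 was thus not above that of Ptprc cells. Whether leukocytes express Itga6 themselves was not tested, so the Ptprc share may not be a background for it. B2m differed in share and in amount: 37.2% and 41.8% of young and 58.3% and 61.0% of old thinned cells had a UMI (unthinned 55.0%, 64.4%, 77.3% and 83.6%), and cells with one held a mean of 1.43 and 1.37 UMIs in the young and 1.87 and 1.80 in the old. Leukocytes express B2m, so Ptprc cells (95.2% to 97.0%) give no background for it. Sftpd was found in nearly every cell of each library, 99.7% to 100% after thinning (99.8% to 100% without), and thinned cells with a UMI held a mean of 15.6 and 19.9 in the young and 12.3 and 13.6 in the old.

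**Figure D4:**
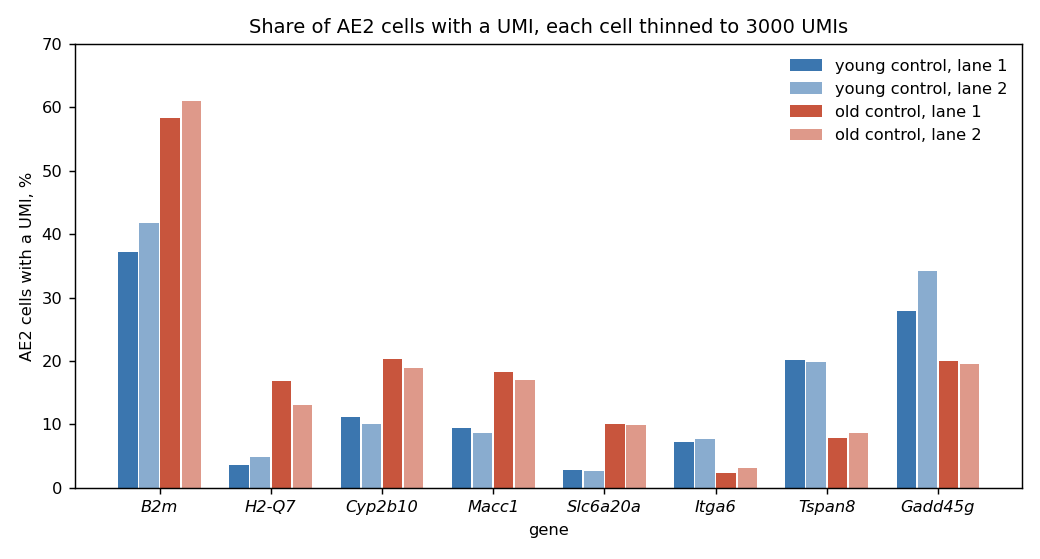
Share of AE2 cells with at least 1 UMI (vertical, %) after each cell was thinned to 3000 UMIs, for 8 called genes and the 4 control libraries. B2m, H2-Q7, Cyp2b10, Macc1 and Slc6a20a have both old bars above both young ones, and Itga6, Tspan8 and Gadd45g have both below.

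Cells of old animals did not differ more from one another than young cells by the measure used. The median distance of a thinned cell from the mean of its library (1 minus the correlation over log counts, 682 cells per library) was 0.239 and 0.237 in the young and 0.235 and 0.237 in the old libraries. Groups of 2 allow no two-sided exact permutation p under 0.3333, so these values are given with no test.

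Among markers of other cell types, those of club cells, the secretory cells of the airways, stood apart by age with no member called. The 10 club markers summed to 1703 and 1274 CPM in the young and 4449 and 2929 in the old libraries, most of it Scgb1a1, which the rule limits. Sums of markers, here and below, are not TMM-scaled. Cells with at least 0.5% Scgb1a1 numbered 28 and 34 in the young and 151 and 105 in the old. The median AE2 cell also differed, with 0.082% and 0.055% Scgb1a1 in the young and 0.146% and 0.106% in the old libraries. Whether leaving out cells at the limit of 0.5% removes this difference was not tested. One AE2 cell of old control 1 held 4120 of that library's 4130 Igkc UMIs, and the 7 B cell markers summed to 1082 CPM there against 35.6 to 43.8 in the other libraries. A fit without the cells at or above 0.5% Scgb1a1 or with at least 5 UMIs of Igkc, Ighm or S100a8, added after the data were seen, called 23 higher and 48 lower genes. It kept 17 of the 20 and all 31 of the 31, and B2m (0.96), H2-Q7 (2.02), Slc6a20a (2.09), Macc1 (1.07) and Cyp2b10 (0.97) had log2 fold changes close to those with all cells. The calls of Spink5 (0.50, adjusted p = 0.183), Ehd3 (3.19, 0.113) and Mgst2 (0.84, 0.05085) were lost.

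No marker of the remaining classes was called. The alveolar macrophage markers summed to 15.5 and 38.6 CPM in the young and 21.1 and 21.8 in the old libraries, T cell markers to at most 0.482 CPM and endothelial markers to 6.70 to 11.4 CPM. Erythroid and mast cell markers had no UMI in any control library. Neutrophil markers summed to 38.4 CPM in old control 2 and 2.57 to 11.1 in the others. Of 10 type I cell markers none was called.

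The same 51 genes were then read in AE2 cells of the LPS libraries, which share no cells with the controls. Among all genes, 136 were higher (1.2%) and 175 lower (1.54%) in old than in young LPS cells. Of the 20 genes higher in old controls, 4 were also higher after LPS (Slc6a20a, Macc1, Rbp4 and Ehd3), 2 were lower (Spink5 and Nlrc5) and 14 were not called. These 4 are 20% of the control calls and 2.94% of the LPS calls in that direction. Of the 31 lower genes, 10 were also lower after LPS (Tspan8, Pim1, Gpc3, Veph1, Fbxl7, Spaar, Ccnd2, Cxcl17, Fgfbp1 and Igf2bp2), which is 32.3% of the control calls and 5.71% of the LPS calls, 2 were higher (Socs3 and Bhlhe40) and 19 were not called. Unlike in controls, cells lay close to the Sftpc limit in the LPS libraries, with 30 to 126 just outside (0.5% to 1%) and 152 to 224 just inside (1% to 2%).

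Slc6a20a had 53.8 and 53.5 CPM in young and 148 and 113 in old LPS libraries, a log2 fold change of 1.28 (adjusted p = 6.53e-05). Tspan8 had 75.998 and 70.066 against 35.7 and 39.0 CPM, and Gpc3 14.8 and 15.2 against 1.33 and 0.915. For these 3 genes old and young libraries were separate under both treatments, with the same direction.

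Among the called class I genes the age difference was not called after LPS in B2m, H2-Q7, H2-Q6 and H2-K1, and it was reversed in Nlrc5. B2m had 1018 and 803 CPM in young and 852 and 959 in old LPS libraries, values that overlapped and all exceeded those of the controls (log2 fold change -0.01). H2-Q7 had 274 and 204 against 337 and 352 CPM (0.53, adjusted p = 0.0941), and Nlrc5 14.1 and 13.9 against 6.92 and 7.23. H2-K1 had 2368 and 1998 against 2411 and 2526 CPM, and its age difference did not pass the test of a change with LPS (adjusted p = 0.328). The difference between the 2 age differences was itself tested: it was called for 47 genes of all tested (0.414%) and for 14 of the 51. These were H2-Q7, B2m, H2-Q6, Nlrc5, Dnaja1 and Spink5 among the higher genes, and Pim1, Itga6, Socs3, Sbno2, Malt1, Bhlhe40, Adora2b and Acvr1b among the lower. The 51 genes were chosen by their control difference, which is part of this contrast. The 14 of 51 therefore cannot be set against the share of all genes. Socs3 had 67.7 and 74.8 CPM in young and 108 and 92.4 in old LPS libraries, and Bhlhe40 40.2 and 45.6 against 85.0 and 64.9, so that old cells stood below young ones in controls and above them after LPS.

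**Figure D5:**
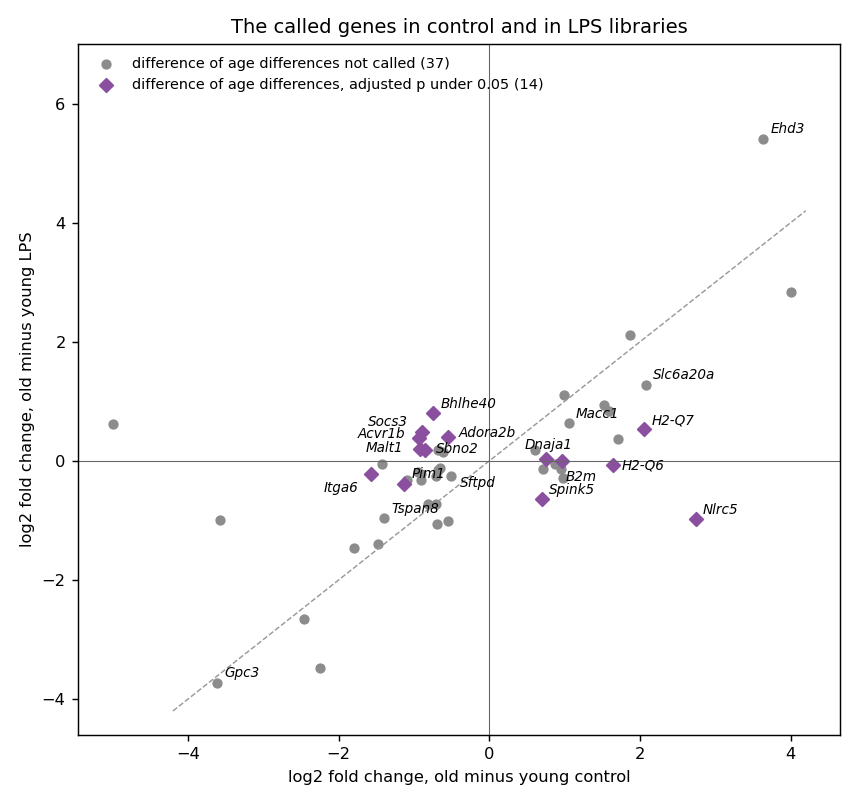
Log2 fold change of old over young AE2 cells in control (horizontal) and LPS libraries (vertical) for the 51 genes called in controls, with the line of equality dashed. The 14 purple diamonds are genes whose age difference itself differed between the treatments, and Slc6a20a, Tspan8 and Gpc3 lie in the quadrants of equal direction.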

How the data were processed

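Each of the 8 tables, 1 for a group on a lane, holds UMI counts that the authors deposited raw (31053 genes, of which 31011 have a name in GENCODE M21, build GRCm38). The 4 hashtag rows were left out. The submitters' processing notes name mm10, bcl2fastq, STAR, Cell Ranger 3.1.0, R 3.6.3 and Seurat 3.1 and 3.1.5, without roles. Their cell filters and doublet treatment are not given here.

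UMIs were summed over AE2 cells per table. No doublet caller was run (the 3% of cells with most UMIs are left out in an alternative), and free RNA was not subtracted. filterByExpr kept 11347 genes, and 5225 of those dropped had a UMI in a control. TMM factors were 0.976 to 1.03, and the 10 most abundant genes held 37.2% to 40.6% of control UMIs. The test was the robust quasi-likelihood F test of edgeR 4.0.16 (R 4.3.3). Its single fit held 8 libraries (4 residual degrees of freedom, BCV 0.0974), with Benjamini-Hochberg adjustment over every tested gene and calls under 0.05. The SE divides the size of the log2 fold change by the root of F. Python 3.11.15 with numpy 2.4.6, scipy 1.17.1, pandas 2.3.3 and matplotlib 3.10.9 did the rest, and DESeq2 1.42.0 served as an alternative.

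The groups of a lane were pooled, per the labels, so the lane number pairs the libraries. Deviations from the group means of young and old control in the same lane correlated with r = 0.0738 over 4561 genes (-0.0232 to 0.277 over the 6 pairs of groups).

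The cell rule, gene lists and tests were chosen with earlier results of these data known, so no count of a list is independent evidence. The naming rule took called genes with at least 20 CPM in either control group and the same sign in both lanes: the 12 largest changes and the 8 most abundant in each direction, 3 called genes at most from each list (or its most abundant gene), sex-linked genes and 2 markers of each other class. Genes of the cell rule and of the mitochondrial genome are described only, and none was called.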

Additional observations from a re-analysis of the deposited data

Results flagged for a closer look

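For 14 of the 51 genes called between old and young controls, the age difference after LPS differed from that in controls by the test of the difference itself. The log2 difference (after LPS minus controls) was -1.5294 for H2-Q7, -0.9773 for B2m, -1.7032 for H2-Q6 and -3.7204 for Nlrc5, all class I genes that were higher in old controls. It was -0.7291 for the co-chaperone Dnaja1 and -1.345 for the protease inhibitor Spink5. Among genes lower in old controls it was 0.7428 for Pim1, 1.3598 for Itga6, 1.3798 for Socs3, 1.0382 for Sbno2, 1.13 for Malt1, 1.5435 for Bhlhe40, 0.9511 for Adora2b and 1.3183 for Acvr1b. The 51 genes were chosen for their difference in the control libraries, so a smaller difference in other libraries is no test of its size. The same control libraries are part of the test of the difference, which favours a sign opposite to that in controls.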

How the results depend on the processing

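Of 652 values of called genes under 13 alternatives, 416 kept their side of the threshold, 236 were no longer called and none changed sign. The counts of genes higher and lower in old controls were 20 and 31. They were 18 and 31 with RLE size factors, 16 and 20 with DESeq2 (10 and 15 of the called genes kept), 94 and 112 with no filter on low counts, 136 and 190 with the 4 control libraries alone, and 13 and 18 without the 3% of cells with most UMIs. With Sftpc of at least 2% they were 8 and 11, although the control cells were the same, since this limit removes cells of the LPS libraries that share the fit. Without 1 library they ranged from 4 to 15 and from 5 to 12. Without cells high in club or leukocyte genes they were 23 and 48. The replicate block gave 21 and 35, with 18 and 29 of the calls kept; besides the calls named above it changed none of the lists' members. For old against young after LPS the counts of 136 and 175 became 71 and 97 with DESeq2, 399 and 377 with no filter, and 198 and 223 with the replicate block. The cause of these shifts was not tested. Of the 51 called genes 30 were at 20 CPM or more, and 1050 genes had an unadjusted p under 0.05.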

Other observations

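Genes of the Y chromosome were read in the AE2 cells of each control library, with Ddx3y at 42.2 and 44.1 CPM in the young and 46.1 and 49.6 in the old and Eif2s3y at 39.3 and 33.6 against 35.4 and 37.1. Xist, which silences the second X chromosome of females, stood at 1.45 and 1.73 CPM in the young and 0.623 and 0.502 in the old libraries. None of the 6 sex-linked genes tested was called.

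Some genes had large differences with no call. Clu, a secreted chaperone of the transitional alveolar epithelium list, had 124 and 173 CPM in the young and 88.6 and 92.1 in the old libraries (edgeR adjusted p = 0.0624), and 17 of the 21 genes tested in that list had a negative difference. Plk2, a p53 target, had 7.23 and 6.50 CPM in the young and 19.3 and 9.66 in the old (adjusted p = 0.215). Acot1, an acyl-CoA thioesterase, had 259 and 292 CPM against 155 and 169 (adjusted p = 0.641).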
